A study of Mus musculus with 12 samples.

Results

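The change with age in knockout retina was taken from 6 of the 12 RNA-seq libraries of the series, 3 from retinae at 3 months and 3 from retinae at 12 months, all from mice that the labels give as a glia-specific knockout of Abca1. The members were chosen by library title, not by any measured value. The other 6 libraries are from control mice, 3 at each of the same ages, and serve here to show where the change in knockout retina differs from the change in control retina. Knockout (KO) libraries are called that as labelled. The labels speak of a glial knockout and the extraction text of an astrocytic one, and neither names the driver of the Cre recombinase. Nor do the labels say whether the 3 libraries of a group come from separate mice, what sex the mice were, or what background the controls carry, so p-values measure the spread between these libraries, which may in part be technical. Age cannot be told apart from anything else that may have differed between the 3-month and 12-month groups, such as sex, background or handling. The tissue is whole retina, in which fewer cells of a type and less RNA per cell cannot be told apart.

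Abca1 encodes an ATP-binding cassette transporter of the plasma membrane that passes cholesterol and phospholipid from cells to apolipoproteins. In the retina, lipoprotein particles made with its help come largely from Müller glia and astrocytes, and variants near the gene are associated with glaucoma. Retinal ageing in mice is known for a mild rise of innate immune genes, among them complement, interferon-induced and antigen presentation genes, and glia under stress are known to raise acute-phase proteins and intermediate filaments.

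Total counts were 29027099 to 29823157 in the KO libraries at 3 months and 29079328 to 29703440 at 12 months, and 18541 to 19144 genes had at least 1 count in a KO library. Of 27179 genes in the files, 16475 had enough counts to be tested. KO 12-month replicate 1 stood apart from the other 2 libraries of its group: the chi-square distance per degree of freedom between their counts was 21.6 and 24.9, against 5.16 between replicates 2 and 3 and 3.52 to 4.88 among the 3-month KO libraries. Control 3-month replicate 2 stood further apart (43.1 and 41.9) and held lens RNA, with the lens crystallin Cryaa at 1923 CPM (counts scaled by library size). That library enters the KO comparison only through the shared estimate of the spread. Results below are given with all libraries, and again without KO 12-month replicate 1 where that ended a call.

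The targeted gene came first. Abca1 (chr4:53030789-53159988 in GRCm38) had 27.5, 27.2 and 24.3 CPM in the 3-month KO libraries and 27.4, 39.01 and 42.5 CPM in the 12-month ones. Replicates 2 and 3 at 12 months were above all 3-month libraries, and replicate 1 lay among them. The log2 fold change was 0.46 ± 0.14 (SE), with an adjusted p of 0.102 (edgeR's quasi-likelihood test, Benjamini-Hochberg over all genes tested), and the exact two-sided permutation test over the 6 libraries gave p = 0.2, where 0.1 is the smallest value it allows. Without replicate 1 the log2 fold change was 0.63 with an adjusted p of 0.00446. In control retina the change was 0.44, and the difference between the 2 changes was 0.03 ± 0.20 (SE, adjusted p = 0.999). Control libraries held Abca1 at 20.7 to 26.6 CPM at 3 months and 27.7 to 32.7 CPM at 12 months, so the count over the whole gene in whole retina does not separate the genotypes. The labels do not say which part of the gene was deleted, so this is no check of them.

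From 3 to 12 months, 390 genes changed in KO retina at an adjusted p below 0.05, or 2.37% of those tested, 253 of them higher at 12 months (1.54%) and 137 lower (0.832%). Large changes were mostly rises: 93 of the rises and 10 of the falls exceeded 2-fold. The 3 and 3 libraries did not overlap for any of the 390 genes, beside 22.2% of all genes tested. The median log2 fold change over all genes tested was -0.00069. The number of calls differed between settings: it was 717 without control 3-month replicate 2, 187 to 217 without a 3-month KO library, 228 without KO 12-month replicate 2, 592 by DESeq2 and 1196 by limma-voom. Of the 390, 38 have only provisional names and 348 belong to none of the 35 gene lists used for description. The plot of age change against mean level shows the called genes.

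**Figure D1:**
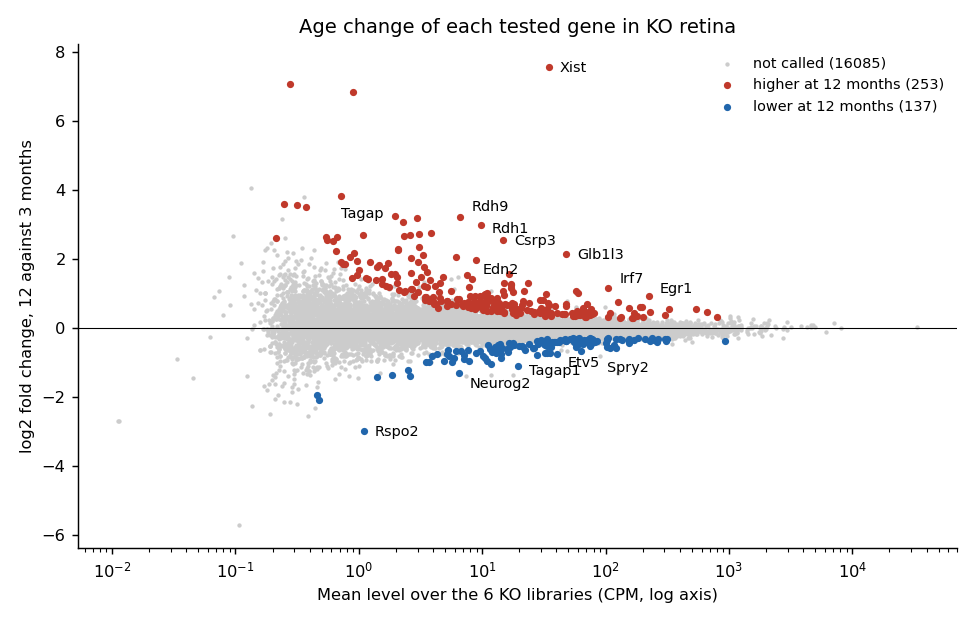
Each point is 1 of the 16475 genes tested, with its mean level over the 6 KO libraries in CPM on a log axis and its log2 fold change from 3 to 12 months; red points are the 253 genes called higher and blue points the 137 called lower. Large rises reach further from 0 than large falls, with Xist at 7.57 and Rspo2 at -2.97.

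The clearest block of rises was a run of 5 neighbouring genes on chromosome 10 for retinol dehydrogenases of the short-chain family. Enzymes of this kind oxidise retinol and, separately, some steroids. Rdh9 (chr10:127776405-127792697) had 1.05, 1.44 and 1.35 CPM at 3 months and 15.0, 10.8 and 10.4 CPM at 12 months. Rdh1 (chr10:127759726-127768299) had 1.25, 2.19 and 3.15 CPM at 3 months and 18.3, 18.4 and 15.2 CPM at 12 months. The rule for naming both genes asks for no overlap, and every 12-month library was several times above every 3-month one. The log2 fold change was 3.23 ± 0.20 (SE, adjusted p = 3.52e-09) for Rdh9 and 2.98 ± 0.22 (adjusted p = 2.92e-07) for Rdh1. The pseudogene Rdh18-ps rose by 2.70 from under 0.5 CPM. Rdh16 and Rdh16f2, which were named after their values were seen, rose by 3.57 and 2.51 and stayed below 1.2 CPM in every KO library. Rdh16f2 had an adjusted p of 0.0611 without 12-month replicate 1. The 7 tested genes just before the run, from Nab2 to Gpr182, were not called, with log2 fold changes of -0.12 (Gpr182) to 1.07 (1700012D01Rik). The other 7 tested members of a retinol dehydrogenase list that was put together after these values were seen were not called either. Rdh9 and Rdh1 also rose in control retina, by 2.63 and 2.89, and neither difference between the genotypes passed the test (adjusted p = 0.999 for both). These genes are close copies of each other, and how reads that fit several of them were counted is unknown here, so the split of counts between them is uncertain.

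Other large rises were spread over different functions. Csrp3, a LIM-domain protein of striated muscle, had 4.02, 4.42 and 4.43 CPM at 3 months and 28.05, 25.9 and 22.4 CPM at 12 months. Glb1l3, which encodes a protein like beta-galactosidase, had 15.7, 18.4 and 18.8 CPM at 3 months and 84.1, 75.2 and 76.6 CPM at 12 months. Both pairs of groups were far apart with little spread inside them. Their log2 fold changes were 2.57 ± 0.13 (SE, adjusted p = 1.14e-10) for Csrp3 and 2.15 ± 0.10 (adjusted p = 2.82e-11) for Glb1l3, and control retina showed rises of 2.80 and 2.58. Wnt6, a Wnt ligand, rose by 2.77 from 0.776 to 1.20 CPM to 6.15 to 7.96 CPM. Ppp1r3g, which directs protein phosphatase 1 to glycogen, rose by 2.74. Tmem116 rose by 2.35. Cd36, the scavenger receptor for oxidised lipids and fatty acids, rose by 2.28, and Nod2, a sensor of bacterial cell wall fragments, by 2.31. All of these rose in control retina too, with changes of 1.53 (Cd36) to 3.22 (Ppp1r3g).

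Itih2, a heavy chain that binds hyaluronan, rose by 3.25 ± 0.40 (SE, adjusted p = 7.5e-05) in KO retina, from 0.472, 0.274 and 0.372 CPM to 5.48, 2.93 and 2.34 CPM. Its change in control retina was 1.17 (adjusted p = 0.334), and the difference between the genotypes did not pass the test (2.08, adjusted p = 0.886). Amd2, a second gene for S-adenosylmethionine decarboxylase whose close copy makes its counts uncertain, had a log2 fold change of 3.19 with an adjusted p of 0.0291, which was 0.0768 without 12-month replicate 1 and up to 0.158 over the alternatives tried.

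Falls were smaller. Rspo2, a secreted enhancer of Wnt signalling, had 2.73, 1.13 and 1.996 CPM at 3 months and 0.132, 0.336 and 0.272 CPM at 12 months. Neurog2, a proneural transcription factor, had 9.11, 9.33 and 9.34 CPM at 3 months and 4.89, 3.67 and 2.68 CPM at 12 months. Both genes were lower in every 12-month library than in any 3-month one, as the rule for naming them asks. The log2 fold change was -2.97 ± 0.50 (SE, adjusted p = 0.00173) for Rspo2 and -1.30 ± 0.19 (adjusted p = 0.000491) for Neurog2. Among other falls over 2-fold were Tmprss5 (-1.41), a membrane serine protease, Chrnb4 (-1.38), a subunit of nicotinic acetylcholine receptors, Apobec2 (-1.22), of the cytidine deaminase family, and Col8a2 (-1.02), a chain of collagen VIII. In control retina Tmprss5 and Chrnb4 fell by 1.24 and 1.34. Control changes of -1.43 for Rspo2, -0.60 for Neurog2, -0.77 for Apobec2 and -0.31 for Col8a2 did not pass the test, and none of the differences between the genotypes did (adjusted p = 0.999 for each).

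Smaller named falls included Slc30a10 (-0.98), a manganese exporter, Itgb8 (-0.98), an integrin subunit that activates TGF-beta, Gulp1 (-0.86), an adaptor for the uptake of dying cells, and the intermediate filament nestin, Nes (-0.90). Itgb8 had 8.13, 7.41 and 7.31 CPM at 3 months and 2.21, 4.91 and 4.48 CPM at 12 months, with the lowest value in replicate 1, and its change was -0.70 without that library. Gpr3, a receptor that signals without ligand, Syt15, a synaptotagmin, and Otop3, a proton channel of the otopetrin family, were lower by 0.97, 0.95 and 0.93 on the log2 scale. Without replicate 1 their adjusted p was 0.0623, 0.0838 and 0.052. Over the alternatives tried the highest adjusted p was 0.0707 for Slc30a10, 0.0787 for Itgb8, 0.0603 for Nes and 0.0547 for Gulp1. In control retina Slc30a10, Gulp1, Nes and Gpr3 fell too, by 0.91, 1.05, 0.86 and 0.97. Control changes of -0.12 for Itgb8, -0.17 for Syt15 and -0.71 for Otop3 did not pass the test. None of the differences between the genotypes did (adjusted p = 0.999 for each).

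Among antigen presentation genes the calls were all rises. Of 26 members tested, 5 rose and none fell, beside 1.54% and 0.832% of all genes, 25 had a positive log2 fold change, and the median was 0.39. H2-K1, a heavy chain of class I major histocompatibility molecules, had 36.6, 37.9 and 35.1 CPM at 3 months and 60.8, 60.5 and 56.4 CPM at 12 months. The 12-month libraries were all above 56 CPM and the 3-month ones all below 38 CPM, a log2 fold change of 0.70 ± 0.09 (SE, adjusted p = 8.68e-05). The other risers were Erap1 (0.93), which trims peptides, Tap2 (0.74) and Tap1 (0.79), the peptide transporter, and H2-D1 (0.39), a further class I heavy chain. Tap1, which was named after its value was seen, had an adjusted p of 0.0557 without 12-month replicate 1. B2m, the light chain, had 14.3 to 14.6 CPM at 3 months and 16.6 to 20.2 CPM at 12 months and was not called (0.32, adjusted p = 0.226). H2-K1 and H2-D1 are similar in sequence, so reads could be split between them. In control retina the same list had 3 risers and a median of 0.26.

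Of 39 interferon-stimulated genes tested, 1 rose and none fell, beside 1.54% higher among all genes. The change was positive in 33, and the median was 0.28. The riser, Irf7, a transcription factor that raises type I interferon, had 69.5, 62.5 and 64.0 CPM at 3 months and 165, 143 and 130 CPM at 12 months. Every 12-month library was far above every 3-month one, a log2 fold change of 1.16 ± 0.10 (SE, adjusted p = 1.92e-06). In control retina Irf7 rose by 1.75 and the list's median was 0.33. The difference between the 2 changes of Irf7 was -0.59 ± 0.15 and did not pass the test (adjusted p = 0.288).

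Complement genes gave 4 risers among 21 tested, beside 1.54% of all genes, with none lower and a median of 0.23. C4b, which carries the classical pathway from C1 to C3 and whose close copy C4a makes its share of reads uncertain, had 9.38, 11.9 and 10.4 CPM at 3 months and 24.1, 25.2 and 21.3 CPM at 12 months. The groups were far apart, with a log2 fold change of 1.16 ± 0.14 (SE, adjusted p = 7.25e-05). The recognition chains C1qa and C1qc rose by 0.77 and 0.66 and the protease C2 by 0.93. C1qc had an adjusted p of 0.115 without 12-month replicate 1, and the highest over the alternatives was 0.21 for C1qc and 0.196 for C2. In control retina the list had 2 risers and a median of 0.19. C1qc rose there by 0.78. C4b rose by 0.61 in control retina, and its difference of 0.55 ± 0.20 did not pass the test (adjusted p = 0.999).

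C1qa and C1qc are also markers of microglia, the resident macrophages of the retina. Of 25 microglia and macrophage markers tested, 3 rose, beside 1.54% of all genes, and none fell, 22 had a positive change, and the median was 0.32. The third riser was Cd14, a co-receptor for bacterial lipopolysaccharide, which had 1.59, 1.65 and 1.69 CPM at 3 months and 3.96, 3.30 and 3.67 CPM at 12 months (log2 fold change 1.15 ± 0.22, SE, adjusted p = 0.00616). Markers of microglial identity were not called, with changes of 0.23 for Cx3cr1, 0.19 for P2ry12, 0.42 for Tmem119 and 0.21 for Csf1r. The summed level of the marker list was 108 to 111 CPM at 3 months and 130 to 136 CPM at 12 months. In control retina the list had 1 riser, C1qc, and a median of 0.26. Its sum there was 103 to 108 CPM at 3 months and 124 to 130 CPM at 12 months. Whether the complement and antigen presentation genes moved with microglial number was not tested. Lymphocyte genes were near the limit of detection: 4 of 22 could be tested, Cxcr3, Gzmb, Iglc2, Ms4a1 and Nkg7 had no count in any KO library, and the list summed to 7.59 to 12.3 CPM at 3 months and 10.5 to 11.6 CPM at 12 months.

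Reactive glia genes showed 5 risers and 1 fall among 25 tested, beside 1.54% higher and 0.832% lower among all genes, with a median of 0.25. In control retina the list had no riser, 2 falls and a median of -0.13; its summed level was highest in the 3-month control library that held lens RNA (508 CPM, against 449 and 469 CPM in the other 3-month controls). Edn2, endothelin 2, which stressed photoreceptors are known to make and which acts on Müller glia, had 4.15, 5.11 and 4.16 CPM at 3 months and 15.8, 10.1 and 9.98 CPM at 12 months. Serpina3n, an acute-phase serine protease inhibitor of reactive astrocytes, had 4.42, 5.28 and 4.43 CPM at 3 months and 13.1, 8.88 and 10.5 CPM at 12 months. For both genes all 12-month libraries were above all 3-month ones, and replicate 1 was the highest. Edn2 rose by 1.42 ± 0.18 (SE, adjusted p = 8.68e-05) and Serpina3n by 1.20 ± 0.19 (adjusted p = 0.000782). Without replicate 1 the rises were 1.17 and 1.04, still past the test.

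In control retina Edn2 changed by -0.48 and Serpina3n by -0.34, neither past the test, and for these genes the difference between the genotypes itself passed: 1.90 ± 0.26 for Edn2 (adjusted p = 0.00129) and 1.54 ± 0.26 for Serpina3n (adjusted p = 0.0131). The control libraries had Edn2 at 4.59 to 5.83 CPM at 3 months and 3.53 to 3.81 CPM at 12 months. They had Serpina3n at 6.39 to 7.91 CPM at 3 months, above every 3-month KO library, and 4.67 to 7.66 CPM at 12 months. The remaining risers of the list were A2m, a broad protease inhibitor, from 7.002 to 7.41 CPM to 13.1 to 14.9 CPM, S1pr3, a receptor for sphingosine 1-phosphate, from 23.7 to 29.5 CPM to 41.9 to 43.5 CPM, and Lif, a cytokine that signals through gp130 to Müller glia and protects photoreceptors, from 0.744 to 1.06 CPM to 1.88 to 2.62 CPM. Their log2 fold changes were 0.98, 0.67 and 1.27. In control retina A2m and S1pr3 each changed by 0.36 and Lif by 0.04, and their differences between the genotypes did not pass the test (adjusted p = 0.683, 0.999 and 0.999). The adjusted p of Lif reached 0.174 over the alternatives tried. Of the filament genes none was called higher. Gfap had 12.6, 14.6 and 13.5 CPM at 3 months and 15.9, 14.7 and 15.0 CPM at 12 months, with the lowest 12-month value just above the highest 3-month one (0.17, adjusted p = 0.633). Vim had a change of -0.01, and Nes is the list's fall.

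**Figure D2:**
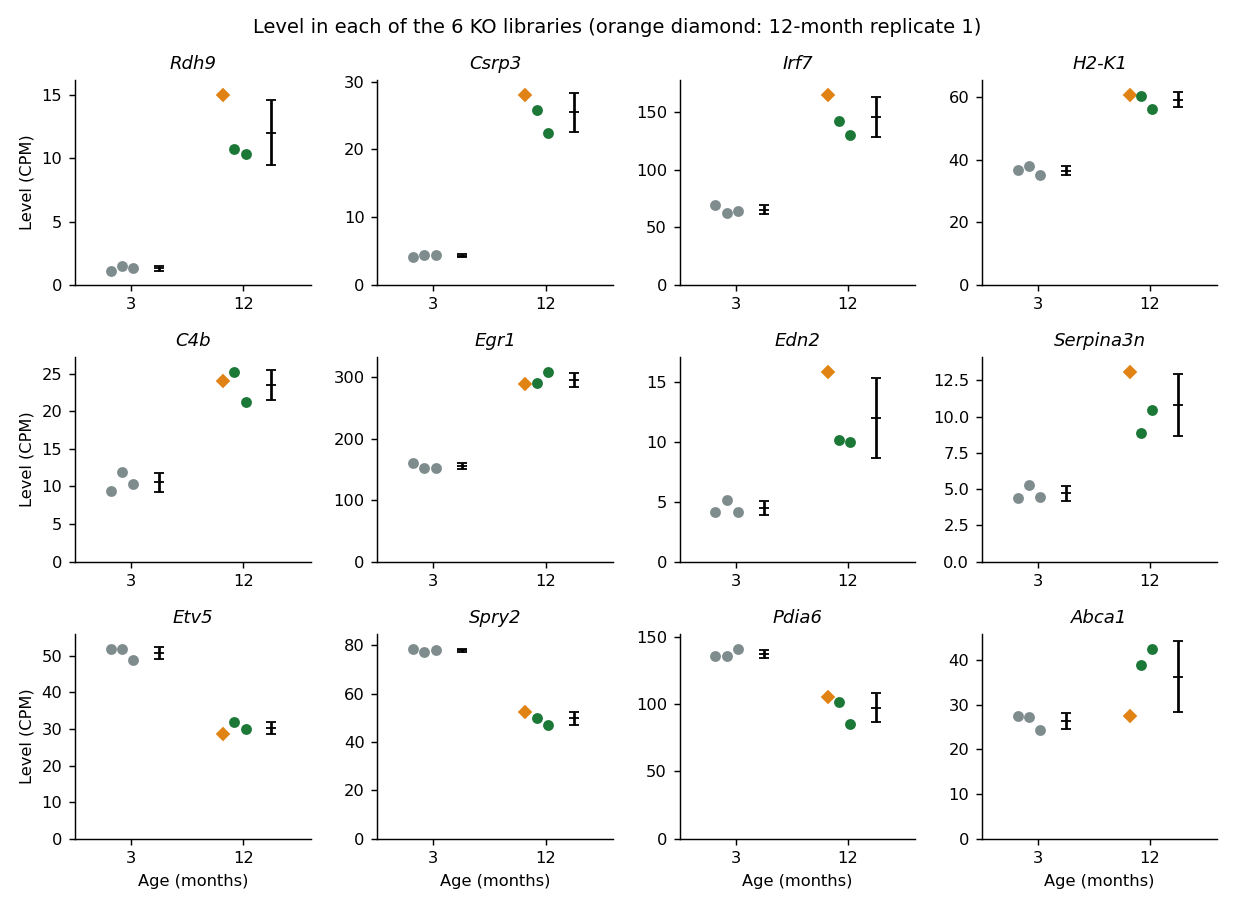
Level in CPM of 12 genes in each of the 6 KO libraries by age in months; points are libraries, the orange diamond is 12-month replicate 1, and the bar beside each group is the mean ± SD (n = 3). The 11 genes other than Abca1 were picked among called genes, for all of which the groups do not overlap, beside 22.2% of all genes tested. For Abca1 replicate 1 lies among the 3-month libraries.

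Immediate early genes, which neurons and glia raise within minutes of a stimulus, gave the largest share of risers among the 35 lists: 6 of 21 rose, beside 1.54% of all genes, and none fell, with a median of 0.21. Egr1 had 161, 153 and 152 CPM at 3 months and 288, 290 and 308 CPM at 12 months. Junb had 54.5, 50.5 and 56.3 CPM at 3 months and 97.0, 84.6 and 79.2 CPM at 12 months. The groups were well separated, with log2 fold changes of 0.93 ± 0.12 (SE, adjusted p = 0.000409) and 0.69 ± 0.09 (adjusted p = 0.000139). Nr4a1 rose by 0.61, Atf3 by 0.80, and Fos and Ier2, named after their values were seen, by 0.36 and 0.51. Ier2 had an adjusted p of 0.126 without 12-month replicate 1. Control retina had 9 risers and 1 fall in this list and a median of 0.43. The labels do not give the time between death and lysis of the tissue, and its part in these levels was not tested.

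The ERK kinase pathway raises a set of transcription factors and its own feedback inhibitors. In a list of 23 such genes tested, put together after the values were seen, 7 fell, 2 rose (Egr1 and Lif) and 14 were not called, beside 0.832% lower and 1.54% higher among all genes; 15 had a negative and 8 a positive change, and the median was -0.27. Etv5, a transcription factor that follows fibroblast growth factor signalling, had 51.8, 51.8 and 48.9 CPM at 3 months and 28.7, 31.8 and 30.1 CPM at 12 months. Spry2, an inhibitor of receptor tyrosine kinase signalling, had 78.4, 77.0 and 78.1 CPM at 3 months and 52.3, 49.8 and 47.1 CPM at 12 months. The spread inside each group was small against the gap between them, and the log2 fold changes were -0.75 ± 0.08 (SE, adjusted p = 1.53e-05) and -0.65 ± 0.08 (adjusted p = 6.73e-05). Etv4, a relative of Etv5, fell by 0.75, Mycn by 0.60, and the inhibitors Spred2, Spred3 and Spred1 by 0.64, 0.45 and 0.38. Spred1 had an adjusted p of 0.132 without 12-month replicate 1. In control retina the same list had 7 falls and 3 rises. Etv5 changed there by -0.64 and Spry2 by -0.32, and neither difference between the genotypes passed the test.

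Genes for protein folding in the endoplasmic reticulum fell or did not pass the test, with none higher. In a list of 36 genes of folding and the unfolded protein response, put together after the values were seen, 7 fell, 27 had a negative change and the median was -0.15, beside 0.832% lower among all genes. Pdia6, a protein disulphide isomerase, had 136, 136 and 141 CPM at 3 months and 106, 102 and 85.2 CPM at 12 months. Xbp1, the transcription factor of the unfolded protein response that is spliced by IRE1, had 110, 119 and 120 CPM at 3 months and 98.1, 80.7 and 80.7 CPM at 12 months. All 12-month libraries were below all 3-month ones, with log2 fold changes of -0.50 ± 0.09 (SE, adjusted p = 0.00337) and -0.43 ± 0.09 (adjusted p = 0.0154). Creld2 fell by 0.39, the chaperones Hyou1 and Dnajb11 by 0.35 and 0.30, and Txndc5 and Edem2 by 0.29 each. Hyou1 and Edem2 had an adjusted p of 0.0977 and 0.0936 without 12-month replicate 1. The main chaperones had changes of the same sign that did not pass: Hspa5, also called BiP, had 385, 387 and 425 CPM at 3 months and 316, 282 and 282 CPM at 12 months (-0.45, adjusted p = 0.0969), and Hsp90b1 had -0.35 (adjusted p = 0.0898). In control retina the list had 1 fall and a median of -0.08, and no difference between the genotypes passed the test.

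The ER stress response element is known from promoters of some chaperone genes of this list. The list's RefSeq promoter windows (250 bases before to 50 after the start, GRCm38.p6) were searched on both strands for the element's letters, CCAAT and CCACG with 9 bases of any kind between them. The element occurs in 39 of 32851 windows, or 0.119%, and in 10 of the 31 list genes that had a window (32.3%). The first share counts windows and the second counts genes with a match in any of their windows. Since the list holds genes of the kind from which the element is known, its higher share is no result of these data. Of those 10, 9 had a negative log2 fold change, from -0.50 for Pdia6 to 0.14 at the other end. The match did not separate the genes that fell from the others: 2 of 6 that fell and had a window (33.3%) and 8 of 25 that were not called (32.0%) hold it. The sites of 2 genes that fell and 2 main chaperones are shown with 20 bases on either side, the matched letters in capitals, each on the gene's own strand.
Pdia6, chr12:17266471-17266529, plus strand: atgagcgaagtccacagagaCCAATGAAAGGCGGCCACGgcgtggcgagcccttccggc
Creld2, chr15:88819500-88819558, plus strand: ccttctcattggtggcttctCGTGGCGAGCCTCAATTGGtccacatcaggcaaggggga
Hspa5, chr2:34772005-34772063, plus strand: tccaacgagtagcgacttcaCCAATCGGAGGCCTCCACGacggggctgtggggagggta
Hsp90b1, chr10:86705618-86705676, minus strand: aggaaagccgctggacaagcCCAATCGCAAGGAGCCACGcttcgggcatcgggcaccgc
In Creld2 the element lies on the opposite strand, so that its letters read as the reverse complement. The sites begin 98 bases before the start in Pdia6, 126 in Creld2, 65 in Hspa5 and 212 in Hsp90b1. A match is a description of the letters and not a measured binding site.

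Genes that define the retinal neurons gave 4 calls, 1 higher and 3 lower, beside 1.54% higher and 0.832% lower among all genes. Rod phototransduction genes summed to 78800 to 81900 CPM at 3 months and 80900 to 84600 CPM at 12 months, and 1 of 24 rose. That gene was Nr2e3, a nuclear receptor of the rod programme, with 701, 671 and 739 CPM at 3 months and 839, 964 and 871 CPM at 12 months (log2 fold change 0.34 ± 0.08, SE, adjusted p = 0.0273). All 3 of its 12-month values were above the 3-month ones. Of 14 cone genes 2 fell: cone arrestin Arr3 had 295, 301 and 294 CPM at 3 months and 244, 235 and 237 CPM at 12 months (-0.31, adjusted p = 0.009), and the potassium channel subunit Kcne2 fell by 0.36. The change of Arr3 in control retina was -0.05, but the difference between the genotypes did not pass the test (-0.26 ± 0.09, adjusted p = 0.979). Grm6, the glutamate receptor of ON bipolar cells, had 343, 350 and 357 CPM at 3 months and 257, 277 and 277 CPM at 12 months and was the fall among 20 bipolar markers (-0.37, adjusted p = 0.00645). The bipolar list summed to 2710 to 2730 CPM at 3 months and 2390 to 2650 CPM at 12 months, without overlap and with the lowest value in replicate 1, and its median change was -0.04. Over the alternatives tried the adjusted p reached 0.159 for Nr2e3, 0.0604 for Arr3, 0.144 for Kcne2 and 0.0583 for Grm6.

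No marker of amacrine and horizontal cells (24 tested), retinal ganglion cells (24), Müller glia (25) or astrocytes (18) passed the test. Among ganglion cell markers the neurofilament Nefl had 390, 360 and 382 CPM at 3 months and 342, 364 and 346 CPM at 12 months (-0.11, adjusted p = 0.612), and the transcription factor Pou4f1 had 45.8 to 51.3 CPM and 40.5 to 46.8 CPM (-0.14, adjusted p = 0.489). The ganglion cell list summed to 1710 to 1760 CPM at 3 months and 1620 to 1720 CPM at 12 months, which overlap. Among Müller glia markers Apoe, the main retinal apolipoprotein, had 910, 956 and 908 CPM at 3 months. It stood higher in all 12-month libraries without passing the test (0.29, adjusted p = 0.103). The glial enzyme Glul had a change of 0.01. The Müller glia list summed to 6710 to 6830 CPM at 3 months and 7030 to 7370 CPM at 12 months, without overlap, and its median change was 0.07. Synaptic vesicle and ribbon genes had no call among 20.

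Sterol genes, the pathway nearest to the targeted transporter, gave few calls, beside 1.54% higher and 0.832% lower among all genes tested. Of 25 genes of sterol synthesis and uptake, 18 had a negative change, the median was -0.11 and 1 fell: Dhcr7, which makes cholesterol in the last step of the pathway, had 43.8, 50.5 and 47.5 CPM at 3 months and 39.2, 37.9 and 36.0 CPM at 12 months (-0.33, adjusted p = 0.0429, up to 0.235 over the alternatives). The list summed to 1420 to 1440 CPM at 3 months and 1310 to 1330 CPM at 12 months, without overlap. In control retina the median was -0.16, with 1 fall. Of 26 genes of sterol efflux and of the LXR receptors that govern it, 1 rose: Cyp27a1, which makes 27-hydroxycholesterol, had 13.2, 10.1 and 9.94 CPM at 3 months and 18.1, 16.5 and 14.2 CPM at 12 months (0.55, adjusted p = 0.0278, and 0.105 without 12-month replicate 1). It rose by 0.73 in control retina.

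The remaining lists held 1 or 2 calls each, or none, beside 1.54% higher and 0.832% lower among all genes tested. Ciart rose and Per2 fell among 21 clock genes (0.57 and -0.32), and the labels do not give the hour at which tissue was taken. Per2 had an adjusted p of 0.0771 without 12-month replicate 1, and Ciart reached 0.0757 over the alternatives. Hmgb2, a chromatin protein, and Gadd45b, a stress-induced gene, rose by 0.51 and 0.70 among 20 senescence and DNA damage genes, and Gadd45b had an adjusted p of 0.0528 without replicate 1. Plvap, of the diaphragms of leaky vessels, rose from 13.1 to 14.02 CPM to 20.6 to 23.6 CPM (0.72 ± 0.10, SE, adjusted p = 0.000409) as the only call among 20 endothelial markers. In the pigment epithelium list of 22 genes Rpe65, the retinoid isomerase, fell by 0.68 from 16.2, 17.2 and 11.3 CPM to 10.2, 10.8 and 6.96 CPM (adjusted p = 0.0326, and 0.0513 without replicate 1). The antioxidant gene Gsto1 rose by 0.53, and had an adjusted p of 0.0848 without replicate 1. Col4a3, a chain of collagen IV in basement membranes, and Dcn, the proteoglycan decorin, rose by 1.57 and 1.46 among 32 collagens and matrix genes (adjusted p = 0.0444 and 0.0488), with 0.0801 and 0.15 without replicate 1. No gene was called among 20 heat shock genes, 20 glucocorticoid-responsive genes, 15 pericyte and 12 myelin markers.

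A dissected retina could carry RNA of neighbouring tissues along. Lens genes summed to 24.0 to 27.1 CPM at 3 months and 21.7 to 39.6 CPM at 12 months with no call among 19, and Birc7 and Crygf had no count in any KO library. Skeletal muscle genes summed to 307 to 315 CPM at 3 months and 352 to 369 CPM at 12 months, without overlap, with 2 rises among 30: Csrp3, and Pygm, the glycogen phosphorylase of muscle, at 143 to 159 CPM and 182 to 189 CPM (0.29, adjusted p = 0.0424). Among all genes tested 1.54% were called higher. Muscle actin Acta1 had 2.33 to 2.74 CPM and 1.78 to 2.91 CPM and was not called. Of the 30 muscle genes, 16 had a positive and 14 a negative change, with a median of 0.04. The part of muscle RNA in the 2 rises was not tested. Corneal and iris epithelium genes summed to 55.0 to 57.7 CPM and 56.1 to 60.6 CPM with Itih2 as the call among 13. Erythrocyte genes had no call among 5.

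**Figure D3:**
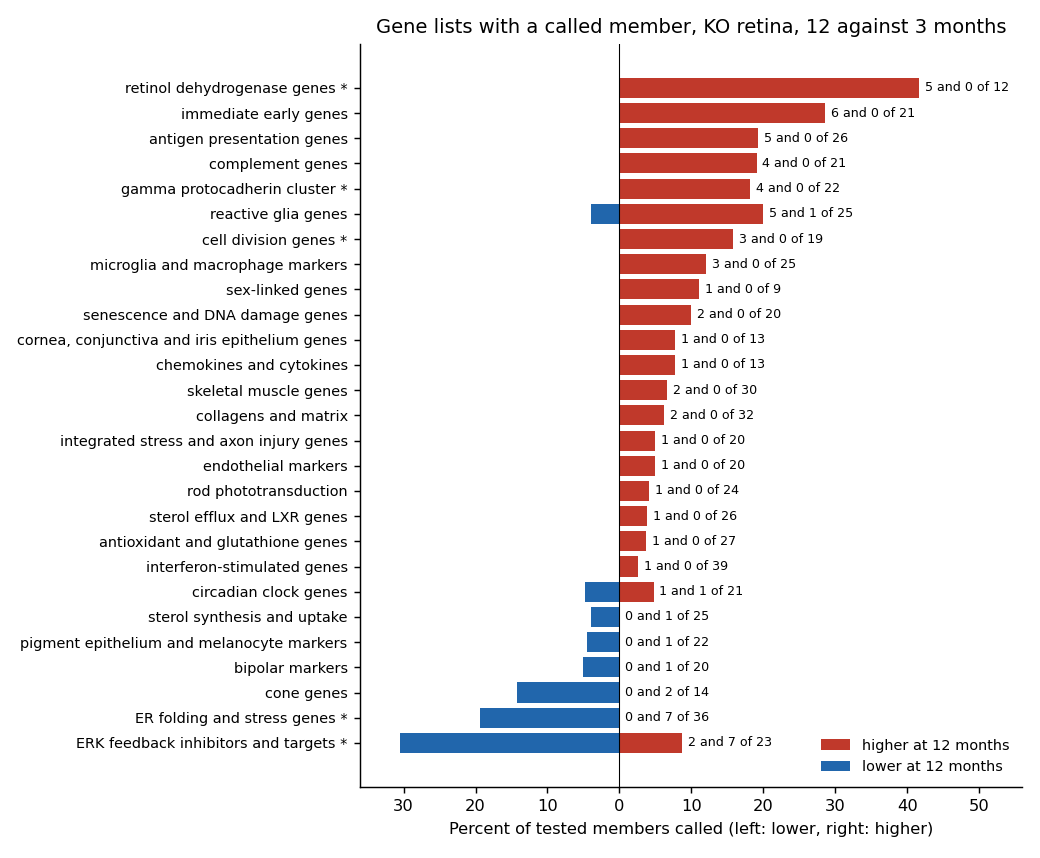
Percent of the tested members of each gene list that were called higher (red, right) or lower (blue, left) at 12 months in KO retina, with the counts printed as higher and lower of tested; lists with an asterisk were put together after the values were seen. The largest blue bars, 7 of 23 ERK pathway genes and 7 of 36 ER folding and stress genes, both belong to lists with an asterisk. Antigen presentation, without an asterisk, shows 5 of 26 higher.

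The largest change of any named gene was that of Xist, the long RNA that coats the inactive X chromosome of female cells. Its counts were 12, 2 and 18 in the 3-month KO libraries and 1583, 2103 and 2519 in the 12-month ones, or 0.405, 0.0686 and 0.609 CPM against 52.3, 70.7 and 85.5 CPM. The 6 control libraries had 5 to 8 counts. The log2 fold change was 7.57 ± 0.30 (SE, adjusted p = 1.18e-09). Genes of the Y chromosome did not move the other way: Eif2s3y had 68.2, 71.4 and 72.2 CPM at 3 months and 71.4, 59.2 and 66.3 CPM at 12 months, and Ddx3y 37.4 to 47.4 CPM and 33.7 to 45.4 CPM. Rn7sk and Rpph1, RNAs made without a poly(A) tail and picked after their values were seen, were also higher at 12 months in KO retina. Rn7sk had 4, 2 and 2 counts against 10, 42 and 68, and Rpph1 had 4, 6 and 4 against 15, 28 and 42. In control libraries Rn7sk had 8, 4 and 32 counts at 3 months and 2, 4 and 10 at 12 months. Rpph1 had 2 to 6 counts there. Of 8 such RNAs in the files, these 2 could be tested. What these values have in common was not tested. On the X chromosome as a whole 4 of 536 genes tested were called (0.746%), beside 2.37% of all genes tested.

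The changes in KO retina were compared with those from 3 to 12 months in control retina, which share no library with them. In control retina 347 genes (2.11%) changed, 230 higher (1.4%) and 117 lower (0.71%). Both comparisons called 167 genes, all in the same direction, 131 higher and 36 lower. These are 42.8% of the KO calls and 48.1% of the control calls. Of the 390 KO calls, 368 (94.4%) had a control change of the same sign. Over the 14332 genes with a mean of at least 1 CPM in the KO libraries, the 2 changes were correlated with r = 0.46 (Pearson) and rho = 0.41 (Spearman), and over all 16475 genes tested with r = 0.31 and rho = 0.35, a description across genes that share library depth and are not independent. The direct test of the difference called 21 genes (0.127%), 18 with the more positive change in KO retina (0.109%) and 3 with the more negative (0.0182%), and 713 at an unadjusted p below 0.05. Of the 390 KO calls, 8 were among those 21. Skeletal muscle genes made up 10 of the 21. Among these, Acta1 fell by 2.86 in control retina and was not called in KO retina (-0.17). Without genes of other tissues the test called 10, of which 7 had the more positive change in KO retina and 3 the more negative.

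**Figure D4:**
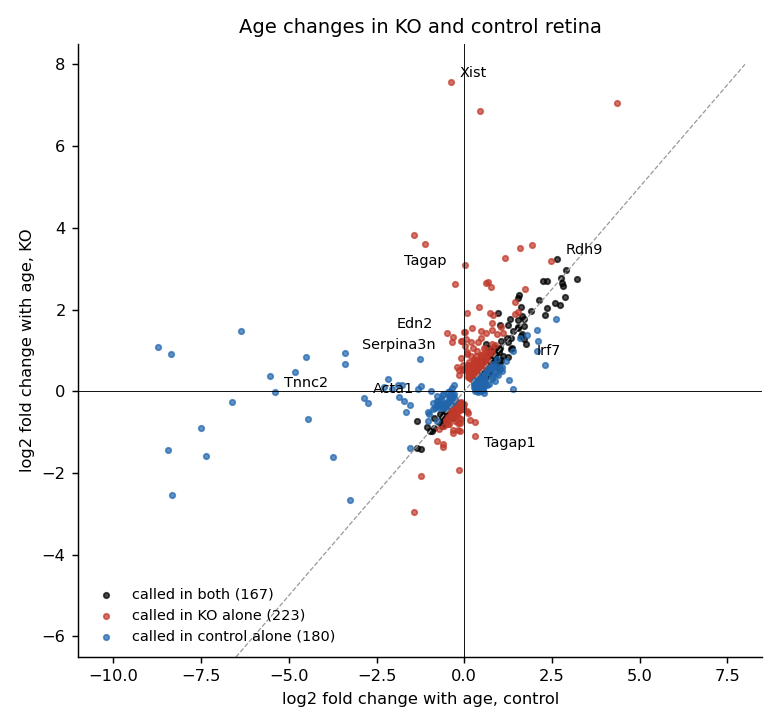
log2 fold change from 3 to 12 months in control (horizontal axis) and KO retina (vertical axis) of genes called in either; the dashed line marks equal changes. The 167 genes called in both lie along the line, while Xist, Tagap, Edn2 and Serpina3n lie above it and Tagap1 below it.

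The genes named next were called both for the difference and in KO retina. Beside Xist, Edn2 and Serpina3n, they were Tagap, a GTPase-activating protein of T cells, its close copy Tagap1, and Trim67, a neuronal ubiquitin ligase. Tagap had 0.304, 0.686 and 0.440 CPM at 3 months and 5.22, 3.36 and 3.57 CPM at 12 months in KO retina, while Tagap1 had 26.6, 27.6 and 25.5 CPM and then 11.2, 12.1 and 14.1 CPM. The 2 genes thus moved in opposite directions, by 3.08 and -1.09, and all 6 libraries were separated by age in both. The control libraries had 1.21 to 4.08 CPM of Tagap at 3 months and 2.24 to 3.375 CPM at 12 months. Of Tagap1 they had 10.4 to 15.9 CPM at 3 months and 15.3 to 18.4 CPM at 12 months. The 3-month KO libraries thus lay below all control libraries for Tagap and above all of them for Tagap1. At 12 months KO retina overlapped control retina for Tagap and lay below it for Tagap1. Both lie on chromosome 17, at chr17:7926000-7934897 and chr17:6954965-6961565, and reads could be split between them. Trim67 had 121, 118 and 123 CPM at 3 months and 69.3, 90.0 and 90.7 CPM at 12 months. It fell by 0.54, and in control retina changed by 0.12, a difference of -0.65 ± 0.12 (SE, adjusted p = 0.0224).

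Leaving out KO 12-month replicate 1 gave 367 called genes (2.2% of 16706 tested), 238 higher and 129 lower. Of the 390 genes called with all libraries, 281 were called again and 109 were not, 64 of them risers and 45 falls. All 390 kept their sign, their median absolute log2 fold change was 0.646 against 0.651, and the highest adjusted p among them was 0.168. Another 86 genes were called only without the library. Among the largest of these was Col4a4, which shares a promoter region with Col4a3, at 7.63, 6.34 and 8.46 CPM at 3 months and 9.61, 18.9 and 19.3 CPM at 12 months. Its change was 1.35 without the library (adjusted p = 0.0136) and 1.09 with it (0.113). The transporter Abcb1b (1.39) and Zfp469 (1.21), Muc6 (1.25) and Ube2t (1.14) were the other large rises of this kind. Cpxm2 (-1.06), Mir670hg (-0.79), Prr7 (-0.62), Marchf9 (-0.59) and Pask (-0.56) were the largest such falls. In each of these 10 genes, as their choice implies, replicate 1 lay closer to the 3-month libraries than replicates 2 and 3 did.

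The way in which replicate 1 differed followed transcript length. Of the 14332 genes of at least 1 CPM, 820 were more than 1.5-fold away from the mean of the other 2 libraries, 256 of them above, while for the other KO libraries the count was 306 to 436. Over 13789 of these genes with a known transcript length, the median log2 difference of replicate 1 from the other 2 libraries ran from 0.18 in the quintile with the shortest transcripts through 0.09, 0.01 and -0.07 to -0.23 in the quintile with the longest. Spearman's rho between this difference and length was -0.52 across genes, a description, against -0.02 to 0.01 for the 3-month KO libraries. For 12-month replicates 2 and 3 it was 0.23 and 0.50, with replicate 1 among the libraries that each was set against. All 13 mitochondrial mRNAs were above the other libraries in replicate 1 (median 0.43), all 22 gamma protocadherins below (median -0.41), and 25 of 32 collagens and matrix genes below.

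The calls shifted with it. In the shortest quintile 51 genes were called higher and 13 lower with all libraries, and 30 and 24 without replicate 1. In the longest quintile 25 were called higher and 27 lower with all libraries, and 51 and 16 without it. Gamma protocadherins, adhesion proteins by which neurons tell self from other, had 4 risers among 22 tested with all libraries and 7 without replicate 1. Among all genes tested 1.54% and 1.42% were called higher in these 2 fits. The list's median was 0.30 and 0.41, and control retina had 2 risers and a median of 0.37. In KO retina Pcdhga12 rose by 0.64 (adjusted p = 0.00405) and Pcdhga9 by 0.85 (adjusted p = 0.0119). These genes share their 3′ exons, so their counts are uncertain one by one, and the list was put together after the values were seen. Abca1, whose longest annotated transcript has 10262 bases, lies in the longest quintile. The labels give only a minimum RNA integrity for sequencing and no value per library, and the part of RNA quality in this pattern was not tested.

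**Figure D5:**
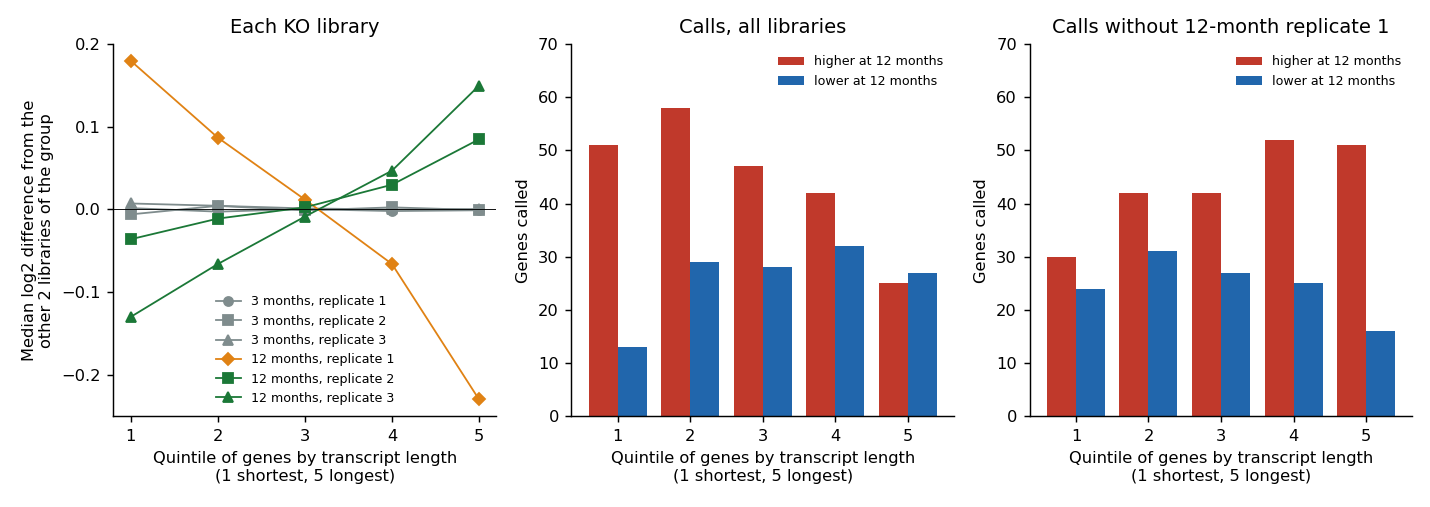
Genes of at least 1 CPM in quintiles by transcript length: left, the median log2 difference of each KO library from the other 2 of its group; middle and right, genes called higher (red) and lower (blue) at 12 months with all libraries and without 12-month replicate 1. Replicate 1 falls from 0.18 to -0.23 across the quintiles, and rises in the longest quintile go from 25 to 51 when it is left out.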

How the data were processed

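Poly(A) RNA of whole retina was sequenced from 12 libraries with a stranded mRNA kit, per the labels' protocols. The deposited values are read counts per gene, 1 file per library; per the submitters' processing notes the authors used HISAT2 2.1.0, featureCounts 1.6.4 and GRCm38. The notes do not give the strand and multi-read settings, so overlapping, antisense and near-identical genes are uncertain. Even counts made up 60.7% to 70.2% of counts of 1 to 20, and 48.6% to 50.7% of counts of 101 to 400, so the 2 reads of a fragment appear to be counted one by one. Gene numbers were matched to RefSeq symbols for 25275 and to GENCODE for 18 of 27179 genes; the 1886 unnamed ones hold at most 0.282% of counts. A deposited table of the authors' 12-month comparison was not used here.

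Genes were filtered by filterByExpr and fitted with edgeR 4.0.16 (R 4.3.3; TMM factors of 0.977 to 1.02, robust quasi-likelihood) with 1 coefficient for each of 4 groups over all 12 libraries, since the groups then share 1 estimate of the spread (common biological coefficient of variation 0.11). Adjusted p-values are Benjamini-Hochberg over the 16475 genes tested, with a threshold of 0.05, and SE is the log2 fold change over the square root of F. CPM are TMM-scaled. The fit was tested on simulated data. Named genes were Abca1, the 14 largest rises and 14 largest falls past the threshold with at least 1 CPM, no overlap and no provisional name, up to 4 called members per list (2 highest where none was called), and the 5 largest differences between genotypes in each direction and the 5 largest rises and falls gained without KO 12-month replicate 1. Genes, lists and members were chosen with earlier results of these data known, and 6 lists were added after the values were seen. Alternatives included DESeq2 1.42.0, limma 3.58.1 (voom with quality weights), other scalings and filters, and each library left out. Transcript lengths are GENCODE's longest transcript per gene.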

Additional observations from a re-analysis of the deposited data

Results flagged for a closer look

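Changes with age that differed between KO and control retina by the test of the difference itself (edgeR's quasi-likelihood test, adjusted p below 0.05) numbered 21, of which 12 have a name and at least 1 CPM. The KO minus control differences in log2 fold change were 7.96 for Xist, 3.05 for Tagap, 1.90 for Edn2, 1.54 for Serpina3n, -0.65 for Trim67 and -1.39 for Tagap1, all of which changed in KO retina.

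The other 6 were not called in KO retina and encode proteins known from muscle: Acta1 (2.69), Tcap (2.47), Atp2a1 (2.45), Mylpf (2.39), Des (2.04) and Tpm2 (1.93). For Acta1 the 3-month control libraries had 15.2, 18.3 and 14.3 CPM, against 2.33 to 2.74 CPM in the 3-month KO libraries, 1.78 to 2.91 CPM in the 12-month KO libraries and 2.09 to 2.37 CPM in the 12-month controls. The 3-month control libraries are thus the group that stood apart. Of these 6, Acta1, Atp2a1, Mylpf and Des (4 genes) belong to the skeletal muscle list, and Des also to that of pericytes and smooth muscle. Of the 21 genes, 10 belong to the skeletal muscle list.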

How the results depend on the processing

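The 390 genes called in KO retina compare with 592 by DESeq2, 1196 by limma-voom and 1069 without both libraries that stood apart, an alternative added after seeing the data; leaving out 1 library gave 187 to 717, the lowest without a 3-month KO library (217, 190 and 187), 228 without KO 12-month replicate 2 and 717 without control 3-month replicate 2. The share called higher was 64.9% with all libraries, 53.8% by limma-voom, 55.4% without control 3-month replicate 2 and 51.6% without both. The 347 control calls were 571 by DESeq2, 713 by limma-voom, 560 at a threshold of 0.1, 198 from the 6 control libraries alone, 1040 without both libraries, and 201 to 479 with 1 library left out. The 21 differences between genotypes were 41, 48 and 50 by DESeq2, limma-voom and without both libraries, 10 without genes of other tissues, and 14 to 29 with 1 library left out. Abca1 passed the test by DESeq2 (0.461, adjusted p = 0.0396), limma-voom (0.556, 0.000805) and without both libraries (0.629, 4.22e-05), and ranged from 0.334 to 0.629 with 1 library left out. Same-numbered KO libraries did not deviate together (r of -0.03, -0.12 and -0.01), so the replicate block, with 368, 317 and 22 calls and 0.447 for Abca1, treats libraries that share only a number as pairs. No named gene that was called changed its sign. Values near 0 that were not called did: Tcap ran from -0.51 to 0.03, and without KO 12-month replicate 1 the median of the skeletal muscle list went from 0.04 to -0.00101, of clock genes from -0.0038 to 0.02, of glucocorticoid-responsive genes from -0.00235 to 0.03 and of sterol efflux genes from -0.00141 to 0.007. Of 64 named called genes, 38 passed under every alternative in which they were tested (24, or 23 for Csrp3 and Itih2), 26 missed under some and 12 without KO 12-month replicate 1. Of 245 list medians under alternatives, 217 moved by less than the replicate spread. Leaving out a library lowers the residual degrees of freedom; the other causes were not tested.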

Other observations

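For genes of cell division, a list with 19 tested members was put together after the values were seen. It gave 3 rises and no fall in KO retina, beside 1.54% called higher and 0.832% lower among all genes tested. The 19 members had a median change of 0.16 on the log2 scale. Racgap1, which works in cytokinesis, had 9.48, 10.1 and 10.2 CPM at 3 months and 23.6, 24.2 and 24.4 CPM at 12 months. Ect2, its partner in the cleavage furrow, had 1.75, 1.89 and 1.59 CPM at 3 months and 6.08, 4.98 and 5.06 CPM at 12 months. Both were separated by age without overlap, with log2 fold changes of 1.28 ± 0.19 (SE, edgeR adjusted p = 0.00151) and 1.62 ± 0.24 (adjusted p = 0.000409). Bub1b, of the spindle checkpoint, had 24.4, 23.5 and 16.7 CPM at 3 months and 36.3, 35.7 and 41.4 CPM at 12 months (0.81, adjusted p = 0.00311). In control retina Racgap1 and Ect2 rose by 1.69 and 1.02, while Bub1b changed by -0.10, and the difference for Bub1b did not pass the test (0.91, adjusted p = 0.148). The other 16 tested genes of the list, 7 with a positive and 9 with a negative change, were not called.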
